A study of Mus musculus with 12 samples.

Results

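The genes described here encode the scaffold of the muscle sarcomere: proteins of the Z-disc, the M-band and the titin and nebulin filaments, and the factors that help to assemble or turn over the contractile unit. They were chosen by name, as 42 listed gene symbols out of 16288 genes found in at least 1 library. All 42 were found, and 39 of them passed the low-count filter that kept 12545 genes for testing. The 3 that did not pass were Nebl, Myoz3 and Xirp2. RNA was sequenced from C2C12 cells, an immortalized mouse myoblast line that fuses into myotubes when serum is lowered. Proliferating cells (GM) were held in medium with 10% fetal bovine serum. Differentiation was induced at high confluence with 2% horse serum and 2 ug/ml insulin, and cells were harvested 24 h or 48 h later (labelled DM 24h and DM 48h, here 24 h and 48 h). At each stage one group received DMSO, the vehicle, and the other 50 uM PFI-3, a ligand of the bromodomains of the SWI/SNF chromatin-remodelling ATPases BRM and BRG1. Exposure began 12 h before harvest of GM cells or before induction, and the agent was renewed every 24 h. Each of the 6 groups held 2 libraries, A and B, which the labels call biological duplicates, so n = 2 throughout. All samples came from this single cell line.

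A sarcomere is bounded by Z-discs, where alpha-actinin crosslinks actin filaments from neighbouring units and where PDZ-LIM proteins, myozenins and telethonin bind. Titin runs from the Z-disc to the M-band, where myomesins crosslink thick filaments, and nebulin lies along the thin filament. Chaperones and kelch proteins help to fold myosin and to stabilise thin filaments, while the MuRF ubiquitin ligases bind titin near the M-band. In differentiating myoblasts, many of these genes are known targets of MyoD, myogenin, MEF2 and SRF.

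Totals were 12576374 to 13658352 expected counts per library. The labelled cell type was checked against 8 muscle markers (Myod1, Myf5, Myog, Ckm, Chrna1, Cdh15, Myh3 and Acta1), none of which was at 0 in any group. Markers of other cell types were scarce: summed levels reached at most 1.22 CPM (counts scaled to a common library total) for 3 endothelial, 1.55 for 3 epithelial, 2.73 for 4 cardiomyocyte and 9.05 for 3 haematopoietic genes, and Adipoq was at 0 in every library. The 5 adipocyte markers summed to between 13.9 and 29.8 CPM, from Cebpa and Pparg, and the 5 osteoblast markers to between 58.6 and 155.5 CPM, nearly all from Runx2. Replicates lay closer together after induction than in GM. The SD of the log2 ratio of A to B was 0.333 with DMSO and 0.301 with PFI-3 in GM, and between 0.138 and 0.151 in the 4 groups after induction.

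The promoter bases of the members are described first. In the RefSeq promoter table (GRCm38.p6), 33 of the 42 members had an entry, with 43 promoters in all. The 250 bases before each start were searched on both strands for the MEF2 motif, the SRF-bound CArG box, the E-box CANNTG and the TEAD-bound motif CATTCC. A MEF2 motif lay in 8 of the members' promoters (18.6%), in Klhl41, Myom3, Myoz2, Synpo2, Synpo2l, Ttn and Xirp2, against 2.92% of all 32851 promoters. A CArG box lay in 5 (11.6%), in Fhl1, Ldb3, Myom1 and Nebl, against 1.47% of all. The less specific E-box was present in 32 (74.4%, against 66.2% of all) and CATTCC in 8 (18.6%, against 12.6%). These are letter matches and not measured binding, and a link between them and the members' response to stage or PFI-3 was not tested. The windows below hold the match in capitals with up to 25 bases on either side, 5′ to 3′ on the strand of the gene. They are shown for some of the members whose response is described further on. The windows of Synpo2 and Fhl1 and of another Synpo2l match are left out. No capital run overlapped a match to another of the 4 motifs. The titin window was chr2:76982679-76982738 on the minus strand, the Klhl41 window chr2:69670032-69670091 on the plus strand and the Myom3 window chr4:135759655-135759714 on the plus strand. Myoz2 was read from chr3:123034988-123035045 (minus), Synpo2l from chr14:20668429-20668488 (minus), Myom1 from chr17:71019433-71019492 (plus) and Ldb3 from chr14:34588682-34588741 (minus).
Ttn, MEF2 motif: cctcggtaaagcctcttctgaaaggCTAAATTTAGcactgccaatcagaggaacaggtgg
Klhl41, MEF2 motif: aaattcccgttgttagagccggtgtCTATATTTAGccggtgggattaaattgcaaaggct
Myom3, MEF2 motif: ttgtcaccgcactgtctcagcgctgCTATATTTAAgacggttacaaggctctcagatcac
Myoz2, MEF2 motif: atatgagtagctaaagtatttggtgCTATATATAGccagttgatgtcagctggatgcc
Synpo2l, MEF2 motif: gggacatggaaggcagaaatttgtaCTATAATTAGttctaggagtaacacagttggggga
Myom1, CArG box: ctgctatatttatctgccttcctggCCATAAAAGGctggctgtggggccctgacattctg
Ldb3, CArG box: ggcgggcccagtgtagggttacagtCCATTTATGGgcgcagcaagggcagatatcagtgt
The matches in Myom3 and Myoz2 began 35 and 33 bases before the start, those in Klhl41, Myom1, Synpo2l and Ttn between 63 and 166 bases before it. The Ldb3 box was counted from 2 annotated starts, 109 and 35 bases downstream of its first base.

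Vehicle-treated cells switched most of these genes on between GM and 24 h and raised them again by 48 h. The members together held 0.313% and 0.23% of all CPM in the GM DMSO libraries, 0.462% and 0.465% at 24 h, and 1.63% and 1.6% at 48 h. From GM to 24 h, 31 of 39 tested members rose and 3 fell (edgeR quasi-likelihood test, adjusted p under 0.05), where 30.6% of all genes tested rose and 30% fell. Between 24 h and 48 h, 36 rose and 1 fell, against 24.2% and 23.9% of all genes. The members' median log2 fold change was 2.53 in the later step. For the earlier step it was 3.56 over 37 members, with those near 0 counts in GM set at their count ratio or bound.

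The order of levels changed with stage when compared per length, in FPKM. Proliferating DMSO cells had their highest FPKM in Actn1 (264.8 ± 73.7, SD), Des (136.5) and Pdlim7 (125.2), genes that are also active outside striated muscle or early in the lineage. Actn1 was the one member that fell at both steps, by 0.99 ± 0.15 (SE) and then by 0.65 ± 0.15 on the log2 scale. Without library A of GM DMSO its first fall was by 0.63 ± 0.06. Fhl1 and Fhl3, which encode four-and-a-half LIM domain proteins, fell in the first step by 1.91 ± 0.38 and 0.69 ± 0.08 and were not called in the second. Library A of GM DMSO had 324.8 CPM of Fhl1 and library B 101, and without library A the fall of Fhl1 was by 0.84 ± 0.14 and still called.

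By 48 h the DMSO libraries had 907 and 866 FPKM of Mybph, which encodes myosin-binding protein H. Des followed at 680 and 661, Klhl41 at 271 and 278, and Pdlim7 at 263 and 257. Ttn and Neb, whose transcripts are among the longest known, had the highest CPM of titin-filament genes but only 30 to 30.9 and 57 to 59.8 FPKM. Among members with more than 3 counts in both GM DMSO libraries, the largest early rises were those of Ttn (217-fold) and Neb (201-fold). Mybph had 3 and 5 counts there and 2398 and 2469 at 24 h. Mybpc1, Csrp3 and Trim63 had no read in either GM DMSO library, so their rises were at least 20.1-, 16.8- and 10.1-fold with a floor of 3 counts per library. A late set was chosen after the values were seen: Myot, Tcap and Mybpc2 had at most 4 counts in any 24 h DMSO library and 70 to 264 counts at 48 h.

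**Figure D1:**
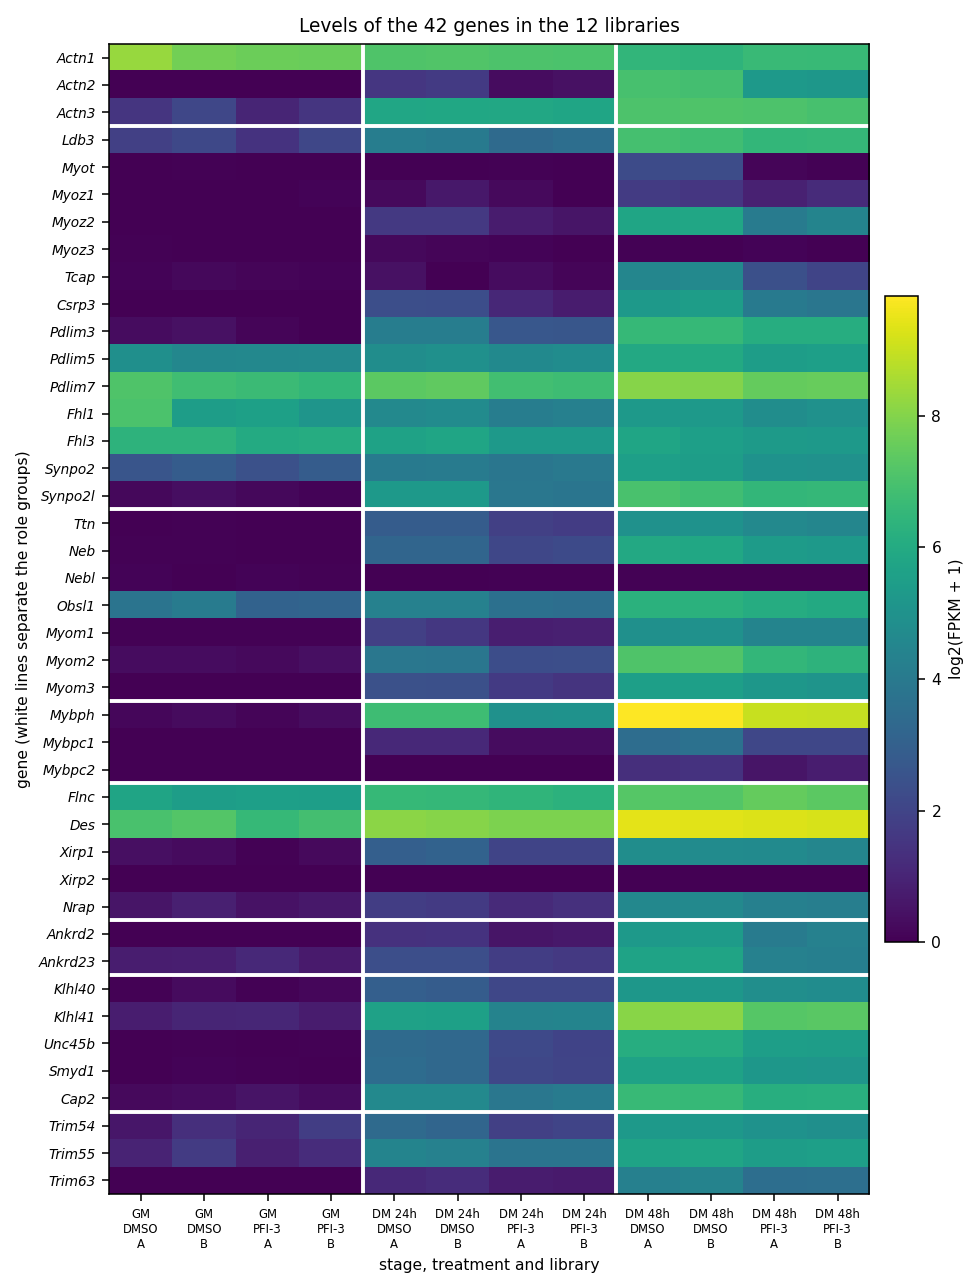
Colour gives log2(FPKM + 1) of each of the 42 genes (rows, grouped by role) in each of the 12 libraries (columns). Most rows are dark in GM and brighten from 24 h to 48 h, with Mybph and Des brightest at 48 h, and the PFI-3 columns of both DM stages are darker than their DMSO neighbours for most genes.

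PFI-3 lowered most of the scaffold genes at both times after induction and raised none by the test. At 24 h, 28 of 39 members were lower and 0 higher (edgeR, adjusted p under 0.05), where 11.4% of all genes tested were lower and 12.2% higher. At 48 h, 29 were lower and 0 higher, against 14% and 13.4% of all genes. At an unadjusted p under 0.05 the count of higher members was also 0 at both times, with edgeR and with DESeq2. In every call at these times both PFI-3 libraries lay below both DMSO libraries. Called or not, the groups did not overlap, in either direction, for 34 of 39 tested members at 24 h and 39 of 39 at 48 h. For Actn1 and Flnc at 48 h the PFI-3 libraries lay above the DMSO ones. The share of all genes whose groups did not overlap was not counted, so the separation adds nothing to the calls. The median log2 fold change of the members was -1.05 at 24 h and -0.54 at 48 h, beside -0.001 and 0.001 over all genes tested. With members near 0 counts left out or set at their count ratio, the 24 h median was -1.23 over 37 members. Their summed share of CPM was 0.322% and 0.314% with PFI-3 at 24 h and 1.19% and 1.13% at 48 h, below the DMSO shares given above.

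The shared spread of the model includes the more variable GM libraries. When only the 4 libraries compared were fitted, 33 members were lower at 24 h. At 48 h 37 were lower and 2 higher (Actn1 and Flnc), which includes all 10 members not called in the fit of all groups. The share of all genes called lower rose to 22.9% at 24 h and 24% at 48 h, and that called higher to 23.5% and 22.9%. Most markers of muscle cells moved with the members: 6 of 8 were called lower and 0 higher at each time. Their log2 fold changes ran from -1.64 to 0.26 at 24 h and from -0.92 to -0.14 at 48 h. The 8 markers summed to 3627 and 3665 CPM with DMSO and 1789 and 1799 with PFI-3 at 24 h, and to between 16362 and 16470 and between 11179 and 11478 at 48 h. The 10 proliferation markers rose with PFI-3 at 48 h in 10 of 10 cases, from a sum of 804.5 to 813.2 CPM to a sum of 1554 to 1556, while at 24 h 0 rose and 3 fell. The part of these shifts in the members' change was not tested. In bulk RNA, fewer cells that express a gene and less RNA of it per cell cannot be told apart.

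**Figure D2:**
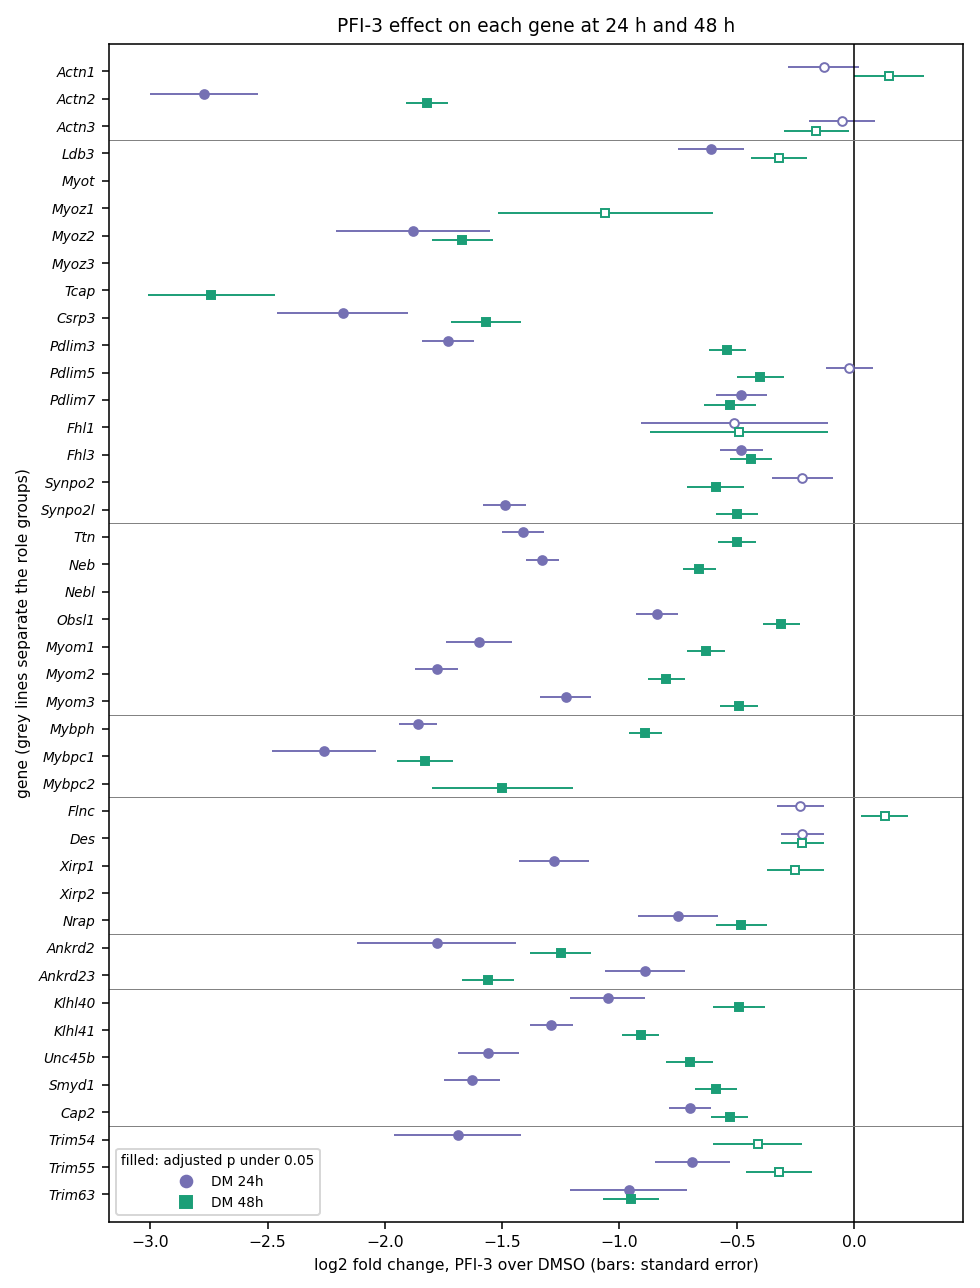
Points give the log2 fold change of PFI-3 over DMSO (horizontal axis) for each gene (vertical axis, grouped by role) at 24 h (circles) and 48 h (squares), with standard errors as bars and filled symbols for adjusted p under 0.05. Genes at or under 3 counts in every library of a group are left out; the filled symbols all lie left of 0, and Actn1, Actn3, Flnc and Des lie near 0 at both times.

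The alpha-actinins crosslink actin at the Z-disc. In the fit of all groups, Actn2 of these 3 genes was called lower at both times and Actn1 and Actn3 at neither. With only the 48 h libraries fitted, Actn3 was called lower and Actn1 higher. Actn2, the form of cardiac muscle and of all skeletal fibres, had 395 and 375.9 CPM in the 48 h DMSO libraries and 111.3 and 107 with PFI-3. At 24 h it had 5.87 and 6.73 CPM with DMSO and 0.761 and 1.07 with PFI-3. The groups did not overlap at either time, and Actn2 fell by 2.77 ± 0.23 (adjusted p = 6.43e-06) and 1.82 ± 0.09 (adjusted p = 1.71e-07, edgeR) on the log2 scale. That left 14.6% and 28.3% of the DMSO level, the largest called fall of any member at 24 h. Its mean over the 4 libraries at 24 h was under the 5 CPM asked of the genes named for that time.

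Actn3, the fast-fibre form, had 395.6 and 402.8 CPM at 48 h with DMSO and 369.5 and 344.8 with PFI-3. Thus in vehicle cells Actn2 and Actn3 reached similar FPKM (122.2 ± 4.39 and 135.8 ± 1.61, SD), while with PFI-3 the values were 36.8 and 129. The Actn3 log2 fold change was -0.05 ± 0.14 at 24 h and -0.16 ± 0.14 at 48 h, with adjusted p = 0.825 and 0.42 (edgeR). Actn1, the non-muscle form, had 334.2 and 315.8 CPM at 48 h with DMSO and 365.9 and 354.9 with PFI-3. Its log2 fold change was 0.15 ± 0.15 (adjusted p = 0.498, edgeR).

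Among the 14 Z-disc adaptor genes, which tether alpha-actinin, titin and signalling proteins, 7 of 13 tested fell at 24 h and 10 of 13 at 48 h. Pdlim3, which encodes the actinin-associated LIM protein, had 25.4 and 25.8 CPM at 24 h with DMSO and 7.84 and 7.55 with PFI-3. At 48 h it had 147.8 and 147.2 with DMSO and 102.4 and 101.1 with PFI-3. Both differences exceeded the spread between libraries, with a fall by 1.73 ± 0.11 at 24 h (adjusted p = 1.41e-06) and by 0.54 ± 0.08 at 48 h (adjusted p = 0.000424, edgeR). The 48 h call of Pdlim3 was lost on log2(FPKM + 0.1) (adjusted p = 0.221, limma).

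Tcap encodes telethonin, which caps the Z-disc end of titin. It had 19.8 and 21.6 CPM at 48 h with DMSO and 3.6 and 2.58 with PFI-3, a fall by 2.74 ± 0.27 (adjusted p = 1.63e-05, edgeR) to 14.9% of the vehicle level. At 24 h it was close to the floor in both groups. Csrp3, which encodes muscle LIM protein, had 37.3 and 43.2 CPM at 48 h with DMSO and 14.2 and 12.9 with PFI-3. The groups stood apart, and Csrp3 fell by 1.57 ± 0.15 there and by 2.18 ± 0.28 at 24 h. Its 24 h fall rests on 49 counts in each DMSO library and 8 to 14 with PFI-3. Myoz2, which encodes the calcineurin-binding calsarcin-1, had 61.1 and 63 CPM at 48 h with DMSO and 17.2 and 21.9 with PFI-3. It fell by 1.67 ± 0.13 at 48 h and by 1.88 ± 0.33 at 24 h, where it had 28 to 30 counts with DMSO and 7 to 9 with PFI-3.

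Myot, which encodes the alpha-actinin partner myotilin, was the extreme case at 48 h. Its DMSO libraries held 101 and 107 counts and its PFI-3 libraries 3 and 1, a count ratio of 54.2 (95% interval 20.9 to 201, counting error only). Its mean level fell short of the 5 CPM asked of the other genes named here, and it is given because of the size of the ratio. Pdlim7, the adaptor with the highest mean CPM, had 304.1 and 296.7 CPM at 48 h with DMSO and 202.6 and 213.3 with PFI-3. The step was modest and much alike at both times, with falls by 0.48 ± 0.11 at 24 h and 0.53 ± 0.11 at 48 h. Fhl3 likewise fell by 0.48 ± 0.09 and 0.44 ± 0.09, and Synpo2l, an actin-binding relative of myopodin, by 1.49 ± 0.09 and 0.50 ± 0.09. The 48 h call of Synpo2l was lost on log2(FPKM + 0.1) (adjusted p = 0.212, limma). Pdlim5 and Synpo2 passed the test at 48 h and not at 24 h, with log2 fold changes of -0.40 ± 0.10 and -0.59 ± 0.12, though the difference between times was not called (adjusted p = 0.0985 and 0.196, edgeR). The Pdlim5 call was lost without library A (-0.40) or B (-0.41) of PFI-3 or library B of DMSO (-0.37), and the 24 h call of Pdlim7 without library B of DMSO (-0.43) or PFI-3 (-0.44). Ldb3, which encodes ZASP, passed it at 24 h (-0.61 ± 0.14) and had -0.32 ± 0.12 at 48 h (adjusted p = 0.0709, edgeR), and its 24 h call was lost without library A of DMSO or of PFI-3 (-0.57 each). Myoz1 and Fhl1 were not called at either time.

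All 6 tested genes of the titin, nebulin and M-band group fell at both times. Titin is the molecular ruler and spring of the sarcomere, and Ttn had 536 and 539.5 CPM at 24 h with DMSO and 214.7 and 190.7 with PFI-3. The 48 h libraries held 2639 and 2713 with DMSO and 1953 and 1824 with PFI-3. The libraries of the 2 treatments were well separated each time, at 37.7% and 70.6% of the vehicle level (log2 fold changes -1.41 ± 0.09 and -0.50 ± 0.08, adjusted p = 9.28e-07 and 0.000832, edgeR). Myom2, which encodes the M-band crosslinker M-protein, had 68.5 and 65.3 CPM at 24 h with DMSO and 19.2 and 19.8 with PFI-3. At 48 h the values were 700.1 and 729.2 against 434.3 and 388.3. Myom2 fell by 1.78 ± 0.09 and 0.80 ± 0.08, the largest falls of its group at each time. The falls of Neb, Myom1 and Myom3 ran from 1.23 to 1.60 at 24 h and from 0.49 to 0.66 at 48 h on the log2 scale. Obsl1, which encodes a cytoskeletal adaptor protein already present in GM, fell by 0.84 ± 0.09 and 0.31 ± 0.08. Its 48 h call was lost without library A of DMSO (-0.32), without library B of DMSO (-0.29) or PFI-3 (-0.24), and with limma on either FPKM scale (-0.25).

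Thick filament binding proteins showed the deepest group median, -1.86 at 24 h and -1.50 at 48 h over 3 genes. Mybph had 190.1 and 191.1 CPM at 24 h with DMSO and 51.7 and 53.1 with PFI-3. Its 48 h values were 1677 and 1606 with DMSO and 901.4 and 869.5 with PFI-3. The gap far exceeded the replicate spread at both times, and Mybph fell by 1.86 ± 0.08 (adjusted p = 6.88e-08) and 0.89 ± 0.07 (adjusted p = 4.2e-06, edgeR). Mybpc1, the slow-fibre myosin-binding protein C, had 41.7 and 46.6 CPM at 48 h with DMSO and 12.5 and 12.4 with PFI-3. At 24 h it had 4.6 and 4.57 with DMSO and 0.913 and 0.992 with PFI-3. It fell by 2.26 ± 0.22 and then by 1.83 ± 0.12, so that under 30% of the vehicle level remained at either time (20.9% and 28.2%). Mybpc2, the fast-fibre form, reached only 5.69 and 6.3 CPM in 48 h DMSO libraries and 1.72 and 2.5 with PFI-3 (log2 fold change -1.50 ± 0.30), a call lost without library A of PFI-3 (-1.26) and with DESeq2 (-1.51).

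Genes that anchor sarcomeres to membranes and intermediate filaments gave a mixed picture. Des, which encodes the intermediate filament desmin, had 815.8 and 789.8 CPM at 24 h with DMSO and 689.6 and 688 with PFI-3. At 48 h it had 2125 and 2068 with DMSO and 1844 and 1747 with PFI-3. The groups did not overlap, but the log2 fold change of -0.22 ± 0.09 at each time missed the threshold (adjusted p = 0.0897 and 0.0786, edgeR). Flnc, the muscle filamin, had -0.23 ± 0.10 at 24 h and 0.13 ± 0.10 at 48 h, with adjusted p = 0.114 and 0.391 (edgeR). Xirp1, an actin-binding Xin repeat protein, fell by 1.28 ± 0.15 at 24 h, to 41.3% of the vehicle level. At 48 h its log2 fold change was -0.25 ± 0.12 (adjusted p = 0.156, edgeR). Nrap, a scaffold of early myofibrils, fell by 0.75 ± 0.17 and 0.48 ± 0.11. Its call was lost at 24 h without library A of DMSO (-0.68) or PFI-3 (-0.60), and at 48 h without library B of DMSO (-0.46) or PFI-3 (-0.42).

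The titin I-band stress sensors Ankrd2 and Ankrd23 are ankyrin repeat proteins that bind the spring region of titin. Ankrd23 had 9.12 and 9.21 CPM at 24 h with DMSO and 5.33 and 4.58 with PFI-3. At 48 h it had 118.8 and 122.9 with DMSO and 42.4 and 39.8 with PFI-3. It fell by 0.89 ± 0.17 at 24 h and by 1.56 ± 0.11 at 48 h on the log2 scale. The difference between these falls lay at the threshold (adjusted p = 0.0497, edgeR) and was not called with RLE size factors, with DESeq2, with a replicate block or without any 1 of the 8 libraries. Ankrd2 fell by 1.78 ± 0.34 and 1.25 ± 0.13, with only 21 to 23 counts with DMSO and 6 to 7 with PFI-3 at 24 h.

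All 5 assembly factors fell at both times. Klhl41, a kelch protein that interacts with nebulin, had 120 and 117.1 CPM at 24 h with DMSO and 48.2 and 48.8 with PFI-3. At 48 h it had 696 and 715.9 with DMSO and 366.9 and 387 with PFI-3. These are 40.9% and 53.4% of the vehicle level (log2 fold changes -1.29 ± 0.09 and -0.91 ± 0.08, adjusted p = 1.84e-06 and 8.24e-06, edgeR). Klhl41 was the one member with fractional expected counts, so some of its reads were shared with other genes. Smyd1, a methyltransferase that works with the myosin chaperone encoded by Unc45b, had 32.9 and 29.7 CPM at 24 h with DMSO and 10.4 and 9.84 with PFI-3. Later values were 169.7 and 172.4 with DMSO and 115.9 and 112.1 with PFI-3. Smyd1 fell by 1.63 ± 0.12 and 0.59 ± 0.09, and Unc45b by 1.56 ± 0.13 and 0.70 ± 0.10. Klhl40 and the actin regulator Cap2 fell by 1.05 ± 0.16 and 0.70 ± 0.09 at 24 h and by 0.49 ± 0.11 and 0.53 ± 0.08 at 48 h. The 48 h call of Klhl40 was lost without library A of DMSO (-0.51) and without library B of DMSO (-0.48) or PFI-3 (-0.44). With limma on log2(FPKM + 0.1), Klhl40 was not called at either time, nor were Smyd1 and Cap2 at 48 h (adjusted p = 0.101 and 0.0594).

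The 3 MuRF ligases, which bind titin and microtubules and mark muscle proteins for turnover, were all called lower at 24 h, with that of Trim54 the one kept in each fit that left out a library. Trim54 (MuRF3) had 14 and 12.2 CPM there with DMSO and 3.81 and 4.27 with PFI-3. The later values were 58.2 and 56.1 with DMSO and 45 and 41 with PFI-3. It fell by 1.69 ± 0.27 at 24 h (adjusted p = 0.00107, edgeR) and had a log2 fold change of -0.41 ± 0.19 at 48 h (adjusted p = 0.129). Trim55 (MuRF2) had 35.6 and 32.4 CPM at 24 h with DMSO and 21.2 and 21.1 with PFI-3, and 91.8 and 95.6 against 73.2 and 76.6 at 48 h. It fell by 0.69 ± 0.16 at 24 h, a call lost without library A of DMSO (-0.62) and without library A or B of PFI-3 (-0.69 each). Its 48 h log2 fold change of -0.32 ± 0.14 was not called (adjusted p = 0.101, edgeR). Trim63 (MuRF1), linked to muscle atrophy, fell by 0.96 ± 0.25 and 0.95 ± 0.12. Its 24 h call was lost when any 1 of the 4 libraries was left out, with values from -1.06 to -0.85, and its 48 h call was kept.

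**Figure D3:**
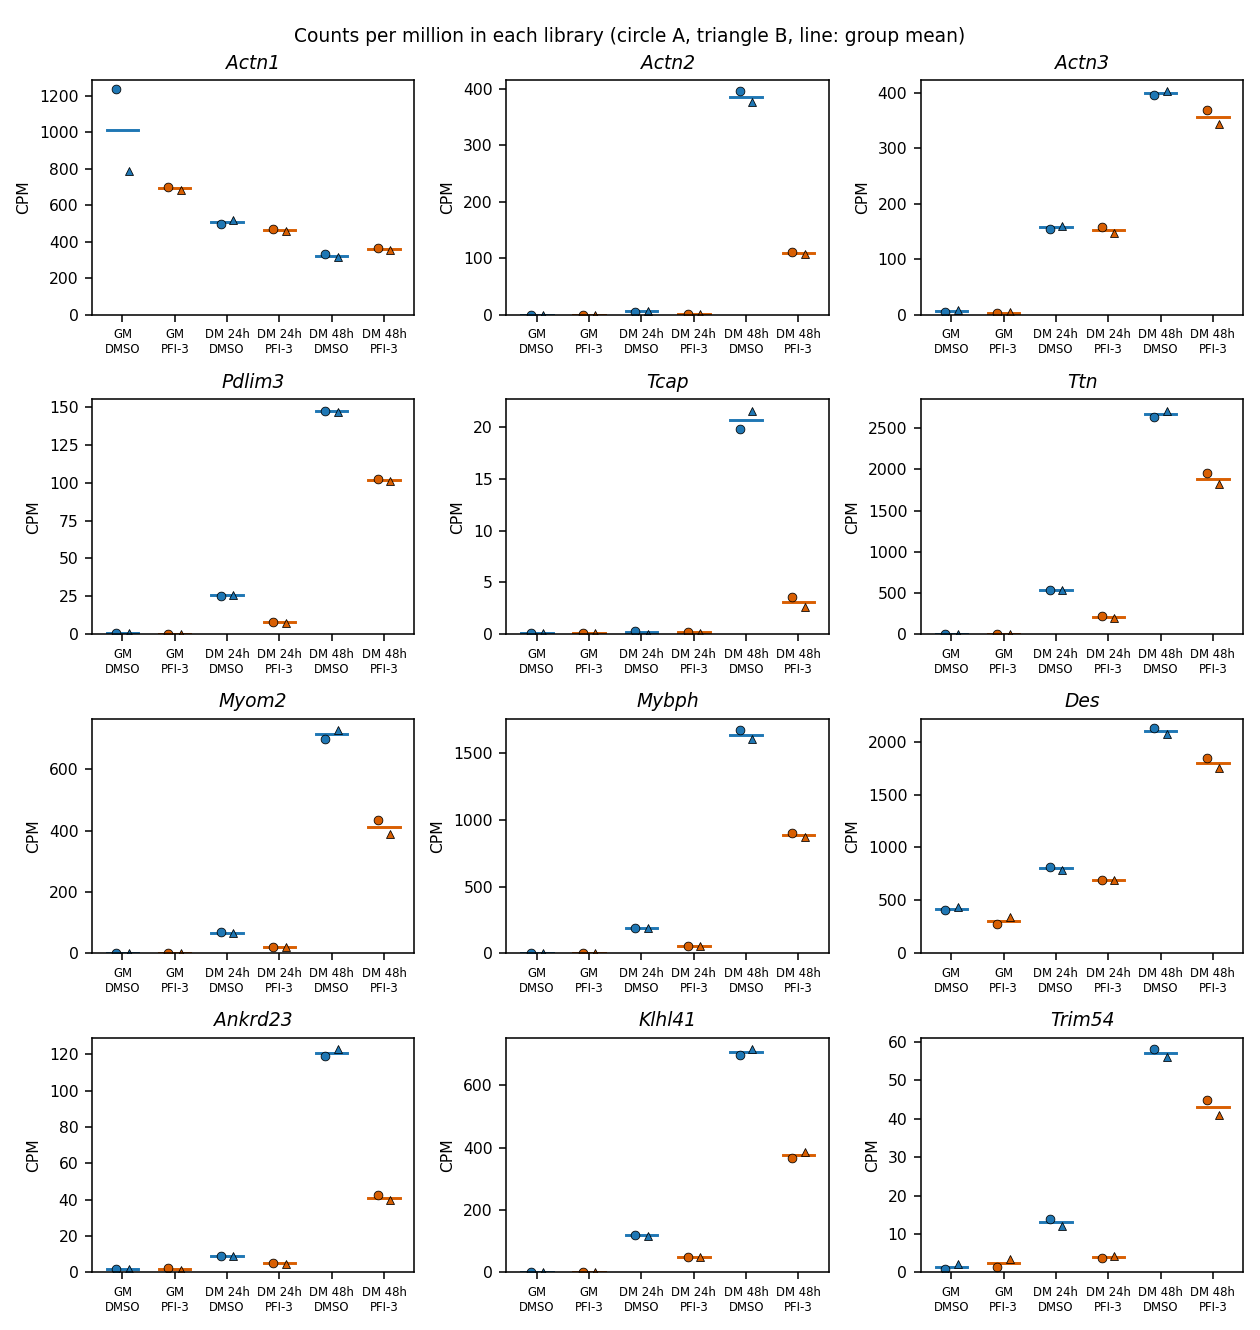
CPM (vertical axes, from 0) of 12 members in the 6 groups, with DMSO in blue, PFI-3 in orange, library A as a circle, library B as a triangle and the group mean as a line. Actn2, Tcap and Ankrd23 show wide gaps between treatments at 48 h, Actn3 and Des narrow ones, and Actn1 declines over the stages.

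Whether the PFI-3 effect differed between 24 h and 48 h was tested directly, as the difference of the 2 log2 fold changes. It was less negative at 48 h for 14 of 39 members and more negative for 1 (edgeR, adjusted p under 0.05), against 7.12% and 4.97% of all genes tested. The members' median difference was 0.43 over the 35 with counts above the floor at both times. All 6 tested titin, nebulin and M-band genes were among the 14, with differences from 0.53 ± 0.12 (Obsl1) to 0.98 ± 0.12 (Myom2). Trim54 had the largest difference, 1.28 ± 0.33 (adjusted p = 0.0275), followed by Pdlim3 at 1.20 ± 0.14 (adjusted p = 0.000185) and Smyd1 at 1.04 ± 0.15 (adjusted p = 0.000713, edgeR). Thus Pdlim3 stood at 30.1% of its vehicle level at 24 h and 69% at 48 h. Ankrd23 was the exception, with a difference of -0.67 ± 0.20 that lay at the threshold (adjusted p = 0.0497, and from 0.00166 to 0.256 over the alternatives, edgeR unless named otherwise). The calls of Trim54, Actn2 and Ankrd23 were lost when any 1 of the 8 libraries was left out, and that of Obsl1 in 4 of 8 cases. Those of Pdlim3, Synpo2l, Myom1, Mybph, Unc45b and Xirp1 were kept in these fits. They were lost with limma on log2(FPKM + 1) or log2(FPKM + 0.1), with highest adjusted p from 0.0576 to 0.121. Of the 15 called differences, 5 kept their call in every alternative. Mybpc1, Csrp3, Myoz2, Trim63, Pdlim7, Fhl3, Klhl40, Klhl41, Cap2, Nrap and Ankrd2 had called falls at both times with no called difference between them. For Actn2 the sign depended on the scale. The difference was 0.95 ± 0.26 on counts (adjusted p = 0.0349, edgeR) and -0.48 with limma on log2(FPKM + 1), where the low 24 h values are compressed.

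**Figure D4:**
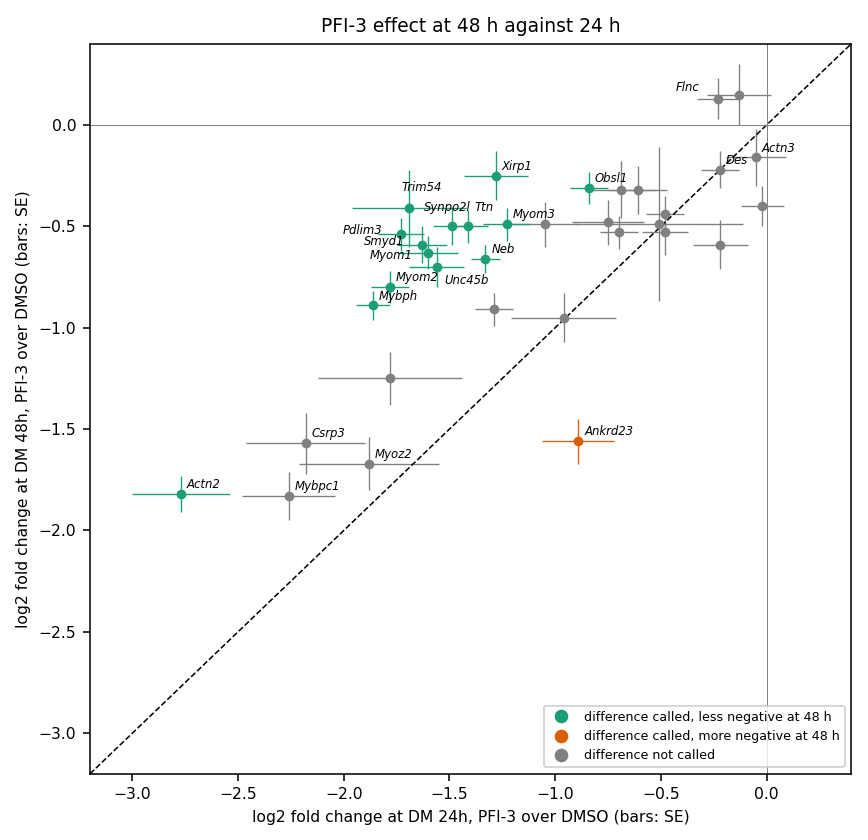
Each point is a member with more than 3 counts in some library of every group after induction, with its log2 fold change of PFI-3 over DMSO at 24 h (horizontal) and 48 h (vertical) and standard errors as bars. Points above the dashed line of equal effect were less negative at 48 h; the 14 called ones are green and Ankrd23, below the line, is orange.

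In proliferating cells most scaffold genes had few reads, and 8 of 39 tested members were lower with PFI-3 and 0 higher (edgeR, adjusted p under 0.05), against 6.15% and 5.46% of all genes. At an unadjusted p under 0.05, 0 members were higher with edgeR and 1, Trim54, with DESeq2. The members' median log2 fold change was -0.18 over all 39 tested, beside -0.010 over all genes, and -0.44 over the 26 not near 0 counts in both groups. The 8 were Actn1, Actn3, Pdlim3, Pdlim7, Fhl3, Ttn, Obsl1 and Des. Obsl1 had 51.2 and 59.9 CPM with DMSO and 28 and 29.7 with PFI-3, a fall by 0.95 ± 0.09 (adjusted p = 9.58e-05, edgeR). Des had 406.4 and 439.2 CPM with DMSO and 272.4 and 338.3 with PFI-3, a fall by 0.47 ± 0.09. Actn1 had 1239 and 786.4 with DMSO and 700.5 and 685.4 with PFI-3, so its fall by 0.55 ± 0.15 rests largely on library A of the DMSO group, and it was -0.18 and not called without that library. Ttn had only 26 and 39 counts with DMSO and 13 and 20 with PFI-3. Pdlim3 had 5 and 7 counts against 2 and 0, a ratio of 6.34 with a 95% counting interval of 1.41 to 58.3. The count depended on the libraries fitted. With only the 4 GM libraries, edgeR called 0 members (7 lower and 0 higher at an unadjusted p under 0.05), where it called 0.137% of all genes lower and 0.137% higher. With a replicate block in that fit it called 5 lower, 4 of them among the 8. In the fit of all groups, 4 were called without library A of the PFI-3 group. The calls of Actn1, Pdlim3 and Pdlim7 were lost in 3 of the 4 fits that left out 1 GM library, and those of Actn3 and Ttn in 2 of 4.

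The deposited tables also give a transcript length for each gene and library, which is fractional for genes with several listed transcripts. It is read here as a mean over a gene's transcripts weighted by their abundance, which no label or file header states. This was examined after the values were seen and is a description. Only tested genes with several listed transcripts and at least 50 counts in each library compared were used. A gene was counted where both PFI-3 libraries lay beyond both DMSO libraries and the means differed by at least 5%. At 24 h, 3 of 14 members measured were longer with PFI-3 and 0 shorter, against 0.968% and 0.566% of 4237 genes. At 48 h, 2 of 17 were longer and 0 shorter, against 0.985% and 0.493% of 4262. In GM, 2 of 7 were longer and 0 shorter, against 0.88% and 0.44% of 4091.

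The members that lengthened were Ldb3, Pdlim5 and Pdlim7, which are the 3 members that encode Enigma-family proteins with an amino-terminal PDZ domain and carboxy-terminal LIM domains. In vehicle cells the lengths of Pdlim5 and Pdlim7 fell at both steps, and that of Ldb3 rose by 7.99% by 24 h and then fell. Pdlim5 had 4440 and 4710 bases in GM, 3622 and 3609 at 24 h and 2496 and 2541 at 48 h. With PFI-3 it had 4088 and 4048 at 24 h and 2802 and 2710 at 48 h, which is 12.5% and 9.42% longer. Its count level at 24 h was -0.02 ± 0.10 on the log2 scale relative to DMSO, so the length differed where the count was nearly level.

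Ldb3 shortened from 3567 and 3600 bases at 24 h to 2813 and 2854 at 48 h with DMSO. Its PFI-3 libraries had 4078 and 3779, then 3105 and 3069, which is 9.62% and 8.97% longer. In GM the Ldb3 mean was 4165 bases with PFI-3 and 3318 with DMSO, 25.5% longer. At 24 h its PFI-3 mean of 3928 lay above the DMSO means of both 24 h (3583) and GM. Pdlim7 had 1840 and 1784 bases in GM, 1442 and 1439 at 24 h and 1186 and 1179 at 48 h with DMSO. With PFI-3 it was 10% longer at 24 h, 6.46% in GM and 3.93% at 48 h. At both times for Pdlim5 and Pdlim7, and at 48 h for Ldb3, the PFI-3 mean lay between the DMSO mean of that time and that of the stage before. Obsl1, with 2 listed transcripts, went the other way in vehicle cells, from 3796 and 3776 bases in GM to 4801 and 4873 at 48 h, and its PFI-3 means stayed within 3% of DMSO (2.93%, -1.05% and 2.1%).

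For scale, the transcripts listed for these genes, matched to GENCODE M21, span 1499 to 5119 bases for 7 of Ldb3, 1196 to 5016 for 9 of Pdlim5 and 3379 to 5679 for 2 of Obsl1. The longest Pdlim7 match has 1697 bases, less than the deposited GM values, so the authors' transcript models were not identical to these. Lengths in GM for Ldb3 rest on 100 to 171 counts per library. FPKM divides by this length, so for these 3 genes steps in counts and in FPKM can differ. From GM to 48 h in DMSO cells, mean Pdlim5 went from 118 to 155.6 CPM and from 25.27 to 60.9 FPKM. With PFI-3 at 48 h it had 117.5 CPM and 44.57 FPKM, so the treatment step was nearly alike on both scales.

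**Figure D5:**
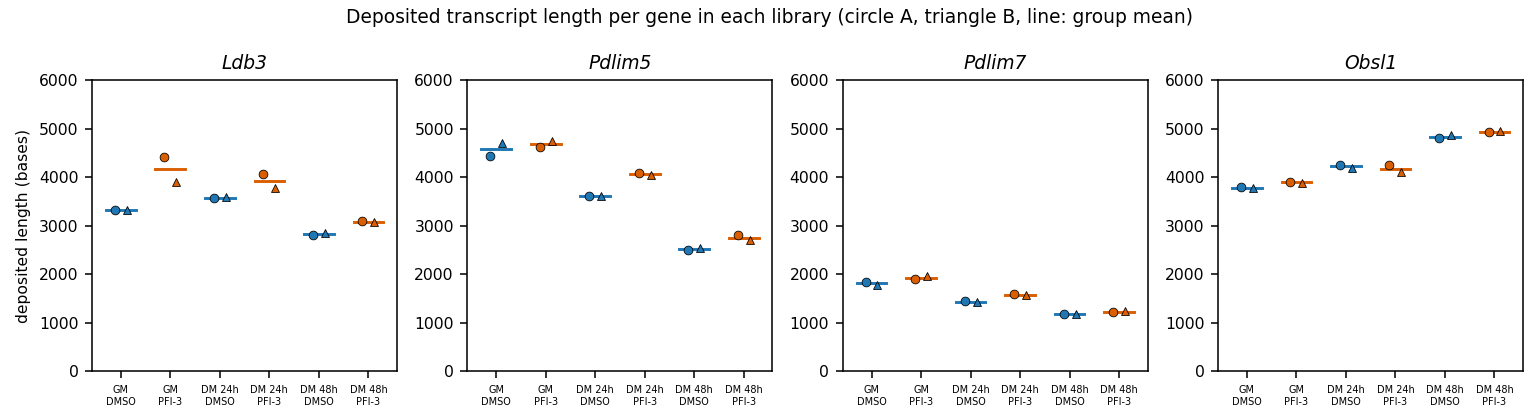
Deposited transcript length in bases (vertical axes, from 0) of 4 members in the 6 groups, with DMSO in blue, PFI-3 in orange, library A as a circle, library B as a triangle and the group mean as a line. Pdlim5 and Pdlim7 shorten and Obsl1 lengthens over the stages, and at 24 h and 48 h the PFI-3 libraries of Ldb3, Pdlim5 and Pdlim7 lie above the DMSO ones.

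Other scaffold and assembly genes outside the 42 gave a reference list of 23, of which 22 were tested. At 24 h 6 were lower with PFI-3 and 2 higher, and at 48 h 17 were lower and 1 higher, with median log2 fold changes of -0.32 and -0.61. Of all genes tested, 11.4% were lower and 12.2% higher at 24 h, and 14% and 13.4% at 48 h. The leiomodin Lmod3, a thin filament nucleator bound by Klhl40, fell by 1.35 ± 0.12 and 0.71 ± 0.08. Capn3, the titin-bound protease calpain 3, rose by 0.60 ± 0.14 at 24 h and fell by 1.19 ± 0.12 at 48 h. A second list held 21 relatives of the members that are expressed in many tissues, among them Actn4, Flna and Vim. With PFI-3, 1 of these fell and 2 rose at 24 h, and 1 fell and 3 rose at 48 h, with medians of 0.08 and 0.09. The relative that fell at both times was the PDZ-LIM gene Pdlim4, by 0.73 ± 0.09 and 1.10 ± 0.09. In GM, 8 of the 21 relatives were lower and 0 higher, against 6.15% and 5.46% of all genes. Their sums in GM ran from 16837 to 21154 CPM over the DMSO libraries and from 14996 to 15062 with PFI-3. With only the GM libraries fitted, 0.137% of all genes were called lower, and the relatives were not counted in that fit. The alpha-actinin Actn4 had log2 fold changes of 0.08 ± 0.11 and 0.21 ± 0.11, close to those of Actn1.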

How the data were processed

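RNA from 12 C2C12 libraries was sequenced by a service provider, per the labels. The authors deposited 1 table per library with an expected count, an FPKM value and a length per gene, per the file headers. HISAT, StringTie, Cufflinks, Bowtie, RSEM, DESeq2 and the mm10 build are named in the submitters' processing notes, with versions and settings not given in the sources used here. A gene missing from a table was taken as 0. Deposited expected counts were rounded and tested with edgeR 4.0.16 in R 4.3.3 (quasi-likelihood, TMM scaling, default low-count filter, 1 model of 6 groups over 12 libraries, Benjamini-Hochberg adjustment over 12545 genes, threshold 0.05). CPM values are counts over TMM-adjusted totals. Standard errors derive from the same test, and the floor is 3 counts per library. Intervals and floors cover counting error only, since PCR copies are not independent molecules. The deposited FPKM values served for levels per length and, with limma 3.58.1, for alternatives. The test was also run on simulated counts in which each gene had the same spread in every group. That run cannot show how the wider spread of the GM libraries affects the calls.

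Members, lists and tests were chosen with earlier results of these data known. Values in every library are given for the member with the highest mean CPM of each role, the 5 largest called falls and rises at 24 h and at 48 h with a mean of at least 5 CPM, members called in opposite directions (none), and the 3 largest called differences between times in each direction. Myot and the transcript lengths were singled out after their values were seen. Markers of muscle and of other cell types served to check the label, and the muscle and proliferation markers are also given beside the members' response. Alternatives were other size factors, DESeq2 1.42.0, other filters, limma on log2(FPKM + 1) and log2(FPKM + 0.1), fits of only the libraries compared, a replicate block, other length thresholds and leaving out each library. Protein sequences were not used here. Promoters came from RefSeq (GRCm38.p6). Tables and figures were made with Python and pandas. One gene of a reference list is not reported here by name.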

Additional observations from a re-analysis of the deposited data

Results flagged for a closer look

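For 15 members the PFI-3 effect differed between 24 h and 48 h by a test of the difference itself (edgeR, adjusted p under 0.05). On the log2 scale the effect at 48 h minus that at 24 h was 1.28 for Trim54, 1.20 for Pdlim3, 1.04 for Smyd1 and 1.03 for Xirp1. It was 0.99 for Synpo2l, 0.98 for Myom2, 0.97 for Myom1 and for Mybph, and 0.95 for Actn2. Ttn had 0.90, Unc45b 0.86, Myom3 0.74, Neb 0.68 and Obsl1 0.53. Ankrd23 alone had a negative value, -0.67. Of these 15 calls, 5 were kept in every alternative. Groups of 2 libraries were too small for a search for samples far from the others.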

How the results depend on the processing

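The counts of members lower with PFI-3 ranged from 24 to 33 at 24 h and from 22 to 37 at 48 h over all alternatives, and no member called in either comparison changed sign. In GM the count of 8 became 5 with limma on log2(FPKM + 1), 5 on log2(FPKM + 0.1), 0 when only the 4 GM libraries were fitted and 5 when a replicate block was added to that fit, and the count of higher members, 0, became 1 (Trim54) without library B of GM DMSO. At 48 h, 2 members were higher when only the libraries compared were fitted, with or without the block. Leaving out each library in turn gave 4 to 8 lower members in GM, 3 to 5 falls from GM to 24 h in DMSO cells (5 without library B of GM DMSO) and 0 to 1 more negative differences. With 1 library left out, PFI-3 calls were lost in at least 1 of the 4 fits for Actn1, Actn3, Pdlim3, Pdlim7 and Ttn in GM, for Ldb3, Nrap, Pdlim7, Trim55 and, in all 4, Trim63 at 24 h, and for Klhl40, Mybpc2, Nrap, Obsl1 and Pdlim5 at 48 h. The less negative differences fell from 14 to 7 with log2(FPKM + 0.1). The more negative ones went from 1 to 0 with RLE size factors, 0 with DESeq2, 0 with the replicate block, 7 on log2(FPKM + 1), 2 on log2(FPKM + 0.1) and 4 in the fit restricted to the libraries of that comparison. Actn2 reversed to -0.48 on log2(FPKM + 1) (adjusted p = 0.0266, limma). Counts of longer transcripts became 1 in GM and 0 at 48 h at a minimum of 10%, and 4 at 48 h at 2%. For the stage steps in DMSO cells they became 1 at 10% (GM to 24 h) and 2 at 2% (24 h to 48 h). The cause of these shifts was not tested.

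Same-letter libraries deviated together in GM (correlation 0.504) but not at 24 h (0.03) or 48 h (0.046), so the letters were not taken as pairs. With a replicate block, 9, 28 and 29 members were lower with PFI-3 in GM, at 24 h and at 48 h. With 2 libraries per group, few residual degrees of freedom stand behind any single comparison. Members under about 5 CPM are limited by depth, among them Myot, Myoz1 and Mybpc2 at 24 h. Of the members called at 24 h, Csrp3, Myoz2, Mybpc1, Ankrd2 and Trim63 were also under 5 CPM in DMSO cells (3.84, 2.27, 4.58, 1.72 and 2.31).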
